A study of Mus musculus with 12 samples.

Results

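The genes followed here are 10 genes of the periportal hepatocyte, chosen by symbol, in the livers of mice that lack OXR1A: the 5 urea cycle enzymes Cps1, Otc, Ass1, Asl and Arg1, the ammonia-releasing enzymes Gls2, Hal and Sds, the cytochrome P450 Cyp2f2, and Cdh1, which encodes E-cadherin. All 10 symbols were found among the 18560 genes of the deposited liver table. OXR1A is 1 of the proteins encoded by Oxr1 (oxidation resistance 1), which protects cells against oxidative stress. Poly(A) RNA of whole liver was sequenced in 12 libraries from mice aged 12 months, 3 each from OXR1A-/- males (called knockout males here), wild-type males, OXR1A-/- females (knockout females) and wild-type females. The study set knockout against wild type, and its title names fatty liver in the males. The labels name no strain, no drug and no diet, and do not say how the allele was made or whether the 3 libraries of a group came from separate animals. The p-values therefore measure the spread between these libraries, which may in part be technical.

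Blood enters the liver lobule at the portal tract and leaves at the central vein, and hepatocytes along this path carry out different work. Periportal hepatocytes receive the most oxygen and nutrients and turn toxic ammonia from amino acid breakdown into urea, while pericentral hepatocytes catch the remaining ammonia in glutamine. Hormones of fasting and stress raise the amino acid and urea enzymes in this tissue, and E-cadherin joins periportal hepatocytes, as well as bile duct cells, to their neighbours.

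Values are FPKM, the fragments of a gene scaled to transcript length and library size, so levels of different genes can be set side by side. Log2 changes are differences of mean log2(FPKM + 1) with their standard error (SE), and tests are two-sided limma tests with Benjamini-Hochberg adjustment over 11514 genes, called at an adjusted p under 0.05. As background for counts given below, 2752 of the 11514 genes had an unadjusted p under 0.05 between the genotypes in males and 706 in females. There were 2318 averaged over the sexes and 1040 for the interaction of genotype and sex. The sums of FPKM ran from 526203 to 667434 per library. No read totals were at hand. Steps in the low values put the depth near 20200000 to 29900000 fragments, an approximate figure that rests on annotated lengths. The search allowed only a limited span of depths, so this figure was bounded in advance. Its fit was loose, with the low values on average 0.15 to 0.193 of a fragment from a whole count. Oxr1, whose value covers every isoform and so cannot check the loss of OXR1A, lay at 22.1 to 25.0 FPKM in knockout males, 12.1 to 23.3 in wild-type males, 19.7 to 20.96 in knockout females and 17.4 to 20.7 in wild-type females. Small traces of the other sex (Xist or Y-linked RNA) stood in knockout male 3, knockout female 1 and wild-type female 1, called the 3 trace libraries here. Wild-type male 2 held less RNA of long transcripts, with a slope of log2 deviation on log2 length of -0.207 against -0.088 to 0.116 in the other libraries.

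Among the 10 genes, Cdh1 and Asl fell in the livers of knockout males, while the other 8 missed the threshold. The groups did not overlap in 7 of the 10: Cdh1, Gls2, Hal, Otc, Ass1, Asl and Cyp2f2 were lower in each knockout male library than in each wild-type male library. The background over all tested genes was 2.55% called in either direction, 0.426% called lower, and 2.49% lower without overlap. All 10 log2 changes were below 0, as were 21.2% of the changes of all tested genes, and the median of the 10 was -0.56 beside a median of 0.19 over all genes. The 10 genes were chosen with earlier results of these data known, so these counts describe them and are no test of a shared shift. With median-ratio scaling, which took the median of all genes to 0.01, the median of the 10 was -0.79 and all 10 again lay below 0; 8 lay below 0 without knockout male 1 and 9 without wild-type male 2. In females the 10 changes were also all below 0 (49.3% of all genes were), with a median of -0.22 beside 0 over all genes. That median was -0.35 without wild-type female 3, and -0.09 without the 3 trace libraries, where 8 of the 10 lay below the median of all genes. None of the 10 passed in females, where 0.0174% of all tested genes were called. At an unadjusted p under 0.05 stood 2 of the 10 (Cdh1 and Cyp2f2) and 706 of the 11514 tested genes. Cdh1, Hal and Cps1 were lower in females without overlap, as were 8.42% of all tested genes. No difference between the male and female changes passed for any of the 10 by limma's interaction term, and 0.0261% of all genes were called. At an unadjusted p under 0.05 stood 1 of the 10 (Cdh1) and 1040 of the 11514 tested genes. In whole liver, fewer periportal cells and less RNA per cell cannot be told apart.

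**Figure D1:**
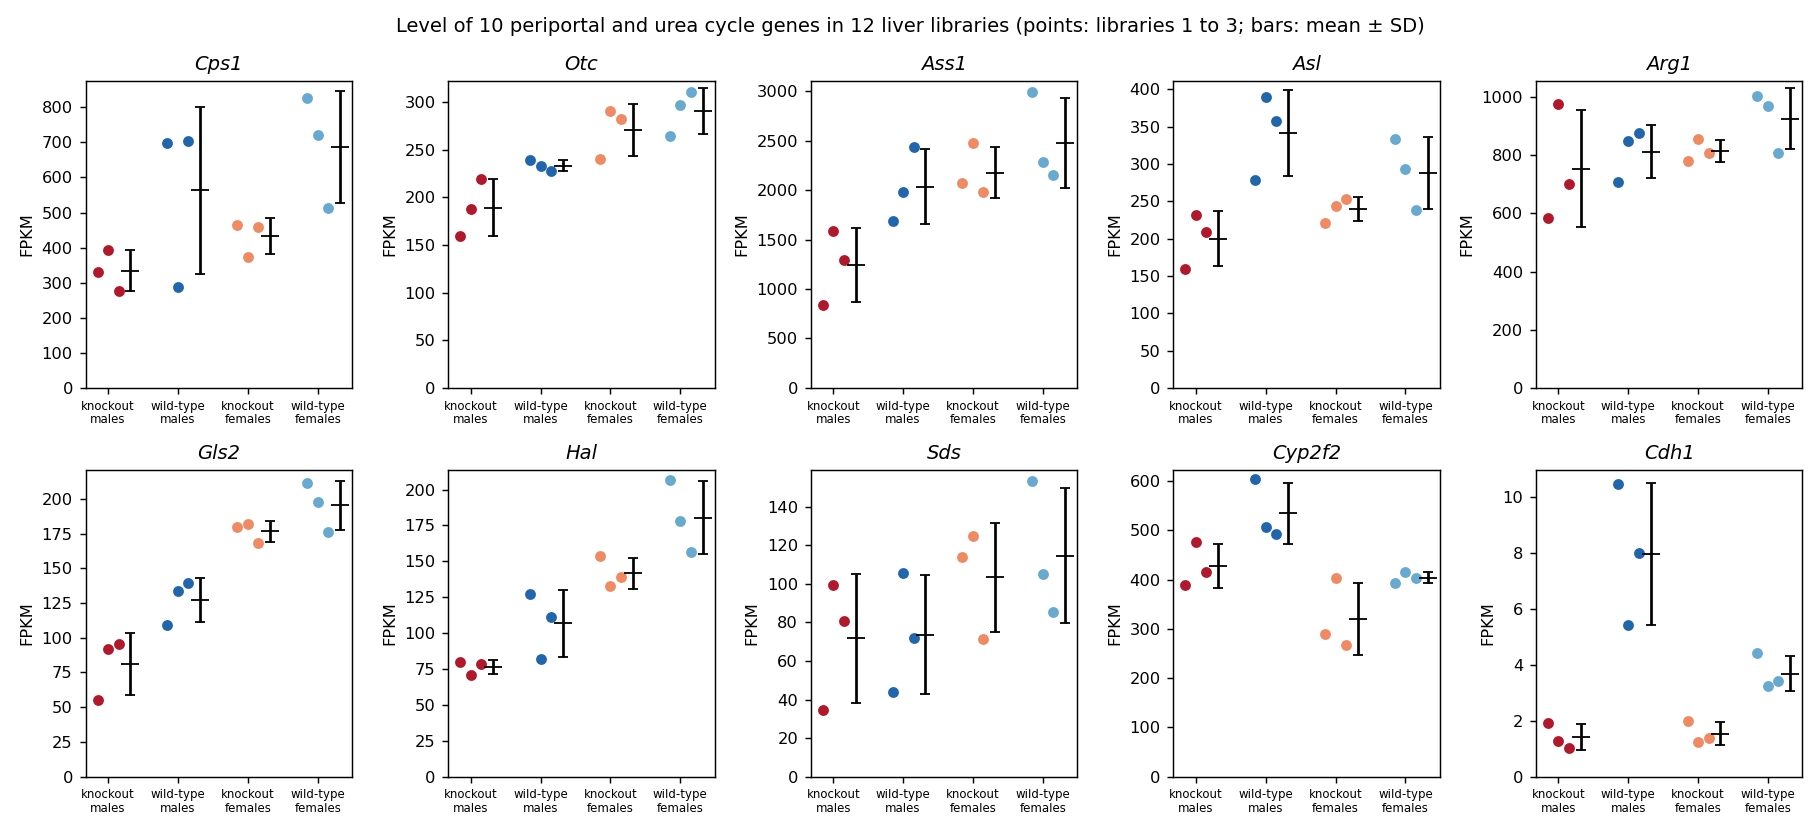
FPKM of the 10 genes in each of the 12 libraries (points, libraries 1 to 3 from left to right), with the mean and SD of each group of 3 as a bar, and axes starting at 0. Cdh1 reaches at most 2.0 FPKM in any knockout library and at least 3.22 in any wild-type library, and Cps1 in wild-type male 2 stands apart from the other wild-type males.

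Cdh1 (Entrez gene 12550, GRCm38 chromosome 8, 106603350 to 106670247) was the least abundant of the 10 genes in each group, and it showed the largest difference between the genotypes among them in either sex. It was listed at 1.92, 1.27 and 1.03 FPKM in knockout males 1, 2 and 3, and at 10.5, 5.41 and 8.00 FPKM in wild-type males 1, 2 and 3. Knockout females had 2.0, 1.24 and 1.38 FPKM, and wild-type females 4.41, 3.22 and 3.42 FPKM. In each sex every knockout library was below every wild-type library, and the 6 knockout libraries of both sexes ran from 1.03 to 2.0 FPKM.

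In males Cdh1 fell to 1.41 ± 0.460 FPKM in knockout livers, against 7.96 ± 2.53 in wild-type livers (SD, n = 3 each), 5.66-fold lower, with a log2 change of -1.87 (SE 0.22, limma adjusted p = 0.00243). In females the means were 1.54 ± 0.404 FPKM in knockout and 3.68 ± 0.637 FPKM in wild type, 2.39-fold lower, and the log2 change of -0.89 (SE 0.22) did not pass over all genes (limma adjusted p = 0.498). Averaged over the sexes the log2 change was -1.38 (SE 0.15, limma adjusted p = 0.0023), and Cdh1 was the only 1 of the 10 called there, against 1.46% of all tested genes. The male and the female change differed by -0.99 on the log2 scale (SE 0.31), a difference that did not pass (limma interaction, adjusted p = 0.495). Wild-type males stood above wild-type females (log2 change 0.90, SE 0.22, limma adjusted p = 0.0204), while knockout males and knockout females differed by -0.08 (SE 0.22, limma adjusted p = 0.913).

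The male call of Cdh1 was present in each of the 12 fits that left out 1 library, with log2 changes from -2.09 to -1.68. It was lost in a fit of the 6 male libraries alone, with the same log2 change of -1.87 (SE 0.25, adjusted p = 0.0619). The averaged call was lost without the 3 trace libraries (log2 change -1.33, adjusted p = 0.0547). By the same approximate steps, with their bounded search, Cdh1 rested on about 95 to 207 fragments in knockout males and 715 to 1079 in wild-type males. The estimates were 111 to 191 in knockout females and 296 to 399 in wild-type females.

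E-cadherin is made by bile duct cells (cholangiocytes) as well as hepatocytes, so the other bile duct markers were read beside it. Their summed level without Cdh1, over 9 markers, was 48.2 to 71.2 FPKM in knockout males and 44.0 to 65.2 FPKM in wild-type males. It was 65.2 to 87.4 FPKM in knockout females and 55.4 to 67.9 FPKM in wild-type females. The sums overlapped between the genotypes in each sex and were not lower in the knockouts. Most of each sum was Spp1, at 36.6 to 57.1 FPKM in knockout males and 30.9 to 47.5 FPKM in wild-type males. The sum therefore says little about the scarcer markers. Krt7, too low to be tested, lay at 0.33 to 0.48 FPKM in knockout females and 0.50 to 0.93 FPKM in wild-type females. Epcam lay at 0.65 to 2.15 FPKM and Krt19 at 0.55 to 1.54 over all 12 libraries, and the chloride channel gene Cftr was near 0, at 0.01 to 0.05. Of the 7 bile duct markers tested, Cdh1 was the only 1 called in males. Averaged over the sexes Tspan8, a tetraspanin gene, rose (log2 change 0.45, SE 0.08, limma adjusted p = 0.0317), a call that median-ratio scaling did not give (0.38, adjusted p = 0.0594). It was listed at 1.92, 2.01 and 2.43 FPKM in knockout females and at 0.87, 0.76 and 1.01 FPKM in wild-type females, without overlap (log2 change 0.73, SE 0.12, limma adjusted p = 0.135).

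Partners of E-cadherin at the adherens junction were measured too. None of 19 tested genes of junctions and hepatocyte epithelium was called in males or in females (medians 0.17 and -0.03, beside 0.19 and 0 over all genes; the male median was -0.05 with median-ratio scaling), and at an unadjusted p under 0.05 there was 1 in males and 0 in females. Ctnnb1, which encodes beta-catenin, averaged 54.7 FPKM in knockout males and 47.2 FPKM in wild-type males (log2 change 0.24, limma adjusted p = 0.37). N-cadherin (Cdh2), the other classical cadherin of hepatocytes, averaged 34.0 and 27.4 FPKM (log2 change 0.32, limma adjusted p = 0.284). Zeb2, a repressor of E-cadherin transcription in other epithelia, had the smallest p of the list in males, at 2.39 FPKM in knockout and 1.14 FPKM in wild type (log2 change 0.63, SE 0.21, limma adjusted p = 0.114), with overlapping groups. Zeb1, Snai1 and Snai2 overlapped between the male groups as well.

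The urea cycle was led by Ass1 in each group. Summed over the 5 enzymes, the level was 2075, 3379 and 2700 FPKM in knockout males 1, 2 and 3, and 3607, 3741 and 4608 FPKM in wild-type males. It was 3778, 4238 and 3788 FPKM in knockout females and 5425, 4567 and 4023 FPKM in wild-type females. The male groups did not overlap and the female groups did.

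Cps1 (Entrez gene 227231, chromosome 1, 67122426 to 67231267) encodes the mitochondrial carbamoyl phosphate synthetase that takes ammonia into the cycle. It was listed at 330, 394 and 277 FPKM in knockout males and at 697, 288 and 704 FPKM in wild-type males. Knockout females had 465, 374 and 460 FPKM, and wild-type females 826, 722 and 513 FPKM. The female groups did not overlap, and the male groups overlapped through wild-type male 2 alone, the library poor in long transcripts. The log2 change was -0.66 in males (SE 0.31, limma adjusted p = 0.221) and -0.64 in females (SE 0.31, limma adjusted p = 0.814). Without wild-type male 2 the male change was -1.08 (SE 0.21) and passed (adjusted p = 0.0395). It did not pass with median-ratio scaling, nor with the length trend of each library removed, a choice made after the data were seen.

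Otc (Entrez gene 18416, chromosome X, 10252230 to 10321024), the mitochondrial enzyme that makes citrulline, averaged 189 ± 29.8 FPKM in knockout males and 233 ± 5.73 FPKM in wild-type males (SD, n = 3 each). Its log2 change in males was -0.31 (SE 0.13, limma adjusted p = 0.182), without overlap. In females the means were 271 ± 27.4 FPKM in knockout and 290 ± 23.9 FPKM in wild type, with overlap (log2 change -0.10, limma adjusted p = 0.932).

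Ass1 (Entrez gene 11898, chromosome 2, 31470270 to 31520670) encodes argininosuccinate synthetase, which joins citrulline and aspartate. Knockout males had 841, 1587 and 1294 FPKM, and wild-type males 1685, 1980 and 2442 FPKM. Knockout females had 2073, 2474 and 1986 FPKM, and wild-type females 2998, 2288 and 2154 FPKM. The male groups stood apart, with knockout male 1 lowest of the 12 libraries, and the female groups overlapped. The change was -0.75 in males (SE 0.23, limma adjusted p = 0.0939) and -0.18 in females (SE 0.23, limma adjusted p = 0.932).

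Asl (Entrez gene 109900, chromosome 5, 130011258 to 130024381) encodes argininosuccinate lyase, which releases arginine and fumarate. It was listed at 159, 232 and 209 FPKM in knockout males and at 278, 389 and 358 FPKM in wild-type males. Knockout females had 221, 244 and 253 FPKM, and wild-type females 334, 293 and 238 FPKM. In males each knockout library was below each wild-type library, and in females wild-type female 3 lay among the knockouts. Asl fell in males to 200 ± 37.4 FPKM in knockout livers, against 342 ± 57.3 in wild-type livers (SD, n = 3 each), with a log2 change of -0.77 (SE 0.18, limma adjusted p = 0.0463). The female change was -0.26 (SE 0.18, limma adjusted p = 0.883), and the difference between the sexes of -0.52 (SE 0.25) did not pass (limma interaction, adjusted p = 0.544).

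The Asl call lay close to the threshold. It was present in 3 of the 12 fits that left out 1 library, those without wild-type male 1, knockout male 3 or wild-type female 3. The adjusted p was 0.0967 and 0.0736 without knockout male 1 and 2, 0.1 and 0.126 without wild-type male 2 and 3, 0.0705, 0.07 and 0.0709 without knockout female 1, 2 and 3, and 0.0626 and 0.0755 without wild-type female 1 and 2. In a fit of the 6 male libraries alone it was 0.261, and without the 3 trace libraries 0.104.

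Arg1 (Entrez gene 11846, chromosome 10, 24915207 to 24927470), the liver arginase that splits off urea, averaged 754 ± 202 FPKM in knockout males and 812 ± 90.6 FPKM in wild-type males, and 814 ± 38.0 FPKM in knockout females and 926 ± 105 FPKM in wild-type females (SD, n = 3 each). The groups overlapped in each sex. The log2 changes were -0.13 in males (SE 0.18, limma adjusted p = 0.651) and -0.18 in females (SE 0.18, limma adjusted p = 0.913), and without knockout male 1 the male change was 0.03.

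**Figure D2:**
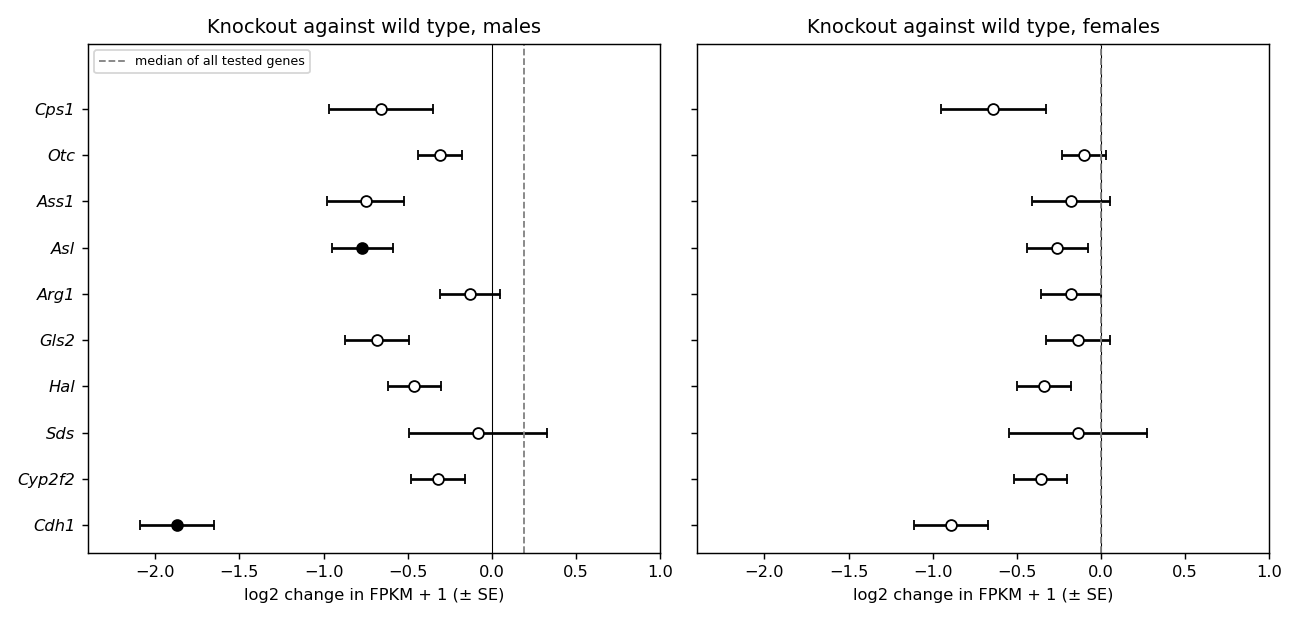
Log2 change in FPKM + 1 of the 10 genes, knockout against wild type, in males (left) and females (right). Points are estimates with bars of 1 SE, filled where the adjusted p is under 0.05, and the dashed line is the median of all tested genes. Cdh1 at -1.87 and Asl at -0.77 are the filled points in males, and no point is filled in females.

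Gls2 (Entrez gene 216456, chromosome 10, 128194635 to 128210004) encodes the liver glutaminase that frees ammonia from glutamine beside the urea cycle. Knockout males had 55.3, 92.2 and 95.5 FPKM, and wild-type males 109, 134 and 139 FPKM. Knockout females had 180, 182 and 168 FPKM, and wild-type females 212, 198 and 176 FPKM. Each knockout male was below each wild-type male, and each male below each female. The log2 change was -0.68 in males (SE 0.19, limma adjusted p = 0.0728), which passed without knockout male 3 (-0.82, adjusted p = 0.0429), and -0.14 in females (SE 0.19, limma adjusted p = 0.934). The difference between the sexes was -0.54 (SE 0.27, limma interaction, adjusted p = 0.544).

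Hal (Entrez gene 15109, chromosome 10, 93488768 to 93516761) encodes histidine ammonia lyase, the first enzyme of histidine breakdown. It was listed at 80.0, 70.7 and 78.6 FPKM in knockout males and at 127, 81.7 and 111 FPKM in wild-type males. Knockout females had 154, 133 and 139 FPKM, and wild-type females 207, 178 and 156 FPKM. In each sex the groups did not overlap. Neither difference passed: the log2 change was -0.46 in males (SE 0.16, limma adjusted p = 0.127) and -0.34 in females (SE 0.16, limma adjusted p = 0.814). With median-ratio scaling the male change was -0.69 and passed (adjusted p = 0.0482), and with the length trend removed, a choice made after the data were seen, it was -0.50 and passed as well (adjusted p = 0.0327).

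Sds (Entrez gene 231691, chromosome 5, 120476547 to 120483932), the serine dehydratase that turns serine into pyruvate and ammonia, had the largest SE of the 10. It ran from 34.8 to 99.4 FPKM in knockout males and from 43.8 to 106 FPKM in wild-type males. It ran from 71.4 to 125 FPKM in knockout females and from 85.4 to 153 FPKM in wild-type females. The log2 changes of -0.08 in males (SE 0.41, limma adjusted p = 0.917) and -0.14 in females (SE 0.41, limma adjusted p = 0.971) were smaller than their errors, and their sign turned when single libraries were left out.

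Cyp2f2 (Entrez gene 13107, chromosome 7, 27119955 to 27133660), a cytochrome P450 of periportal hepatocytes and of airway club cells, averaged 427 ± 44.5 FPKM in knockout males and 535 ± 61.5 FPKM in wild-type males (SD, n = 3 each). The male groups did not overlap (log2 change -0.32, SE 0.16, limma adjusted p = 0.232). The means were 320 ± 73.3 FPKM in knockout females and 404 ± 11.9 FPKM in wild-type females, where knockout female 2 reached 404 FPKM (log2 change -0.36, SE 0.16, limma adjusted p = 0.8).

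Promoters were at hand for 4 of the 10 genes in the RefSeq promoter table of GRCm38.p6: Hal, Otc, Ass1 and Cyp2f2. Those of Hal and Ass1 are shown because Hal was lower in the knockouts of each sex without overlap and Ass1 is the most abundant enzyme of the set. Each window runs from 250 bases before to 50 bases after the start site, on the plus strand, at chr10:93488518-93488817 for Hal and chr2:31470020-31470319 for Ass1. Capitals mark matches on either strand to the TATA box TATAAA, the CCAAT box CCAAT, the E-box CAGGTG or the cAMP element TGACGTCA.
Hal: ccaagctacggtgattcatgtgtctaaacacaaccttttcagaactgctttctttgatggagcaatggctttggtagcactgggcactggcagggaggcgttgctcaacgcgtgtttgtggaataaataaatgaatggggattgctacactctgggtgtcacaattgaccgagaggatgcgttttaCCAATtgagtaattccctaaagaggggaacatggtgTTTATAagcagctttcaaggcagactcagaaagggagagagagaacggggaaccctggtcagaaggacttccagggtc
Ass1: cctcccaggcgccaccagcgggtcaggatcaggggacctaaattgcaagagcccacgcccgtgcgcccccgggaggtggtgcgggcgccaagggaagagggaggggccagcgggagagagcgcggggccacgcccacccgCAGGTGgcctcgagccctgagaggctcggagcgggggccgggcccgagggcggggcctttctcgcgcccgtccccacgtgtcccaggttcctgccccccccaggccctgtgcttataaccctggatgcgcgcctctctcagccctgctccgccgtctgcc
Hal held a TATA box match 28 bases before its start, on the minus strand, so that the printed strand reads TTTATA there. It held a CCAAT match 64 bases before its start, and Ass1 held the E-box 110 bases before its start. No match lay in the windows of Otc and Cyp2f2, and the cAMP element was in none of the 4. Of 32851 promoter windows in the table, 13.6% held the TATA box, 37.4% the CCAAT box, 20.2% the E-box and 1.8% the cAMP element. A match is a run of letters and not a shown binding site.

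Hal was lower in males than in females of each genotype, and Gls2 in knockouts. In wild type, males had 107 FPKM of Hal and females 180 FPKM (log2 change -0.77, SE 0.16, limma adjusted p = 0.0112), and in knockouts males had 76.4 FPKM and females 142 FPKM (-0.88, SE 0.16, limma adjusted p = 0.0111). Gls2 stood at 81.0 FPKM in knockout males and 177 FPKM in knockout females (-1.16, SE 0.19, limma adjusted p = 0.00512), and at 127 FPKM in wild-type males and 195 FPKM in wild-type females (-0.62, SE 0.19, limma adjusted p = 0.0504). Males against females thus called Cdh1 (higher) and Hal (lower) in wild type and Gls2 and Hal (lower) in knockouts, where 13.4% and 3.67% of all tested genes were called. In wild type 2.31% of all genes were called higher and 11.1% lower in males, and in knockouts 2.01% were called lower. Cyp2f2 was the only 1 of the 10 with a higher mean in males in each genotype, with log2 changes of 0.40 in wild type (SE 0.16, limma adjusted p = 0.109) and 0.43 in knockouts (SE 0.16, limma adjusted p = 0.189). With median-ratio scaling the wild-type calls were Cdh1 and Cyp2f2, both higher in males, with 0.66 for Cyp2f2 (SE 0.18, adjusted p = 0.0381).

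Of these sex calls Gls2 in knockouts was called in all 12 fits that left out 1 library. Cdh1 in wild type was not called without wild-type male 1 (adjusted p = 0.0569) or 3 (0.0541) or without wild-type female 2 (0.0798) or 3 (0.0612). Hal was not called in wild type without wild-type female 1 (0.0535) or with median-ratio scaling (0.0551), nor in knockouts without knockout female 1 (0.0584). None of the sex calls remained without the 3 trace libraries, where the log2 changes were 1.01 for Cdh1 (adjusted p = 0.0501) and -0.66 for Hal (0.095) in wild type, and -1.28 for Gls2 (0.0504) and -0.84 for Hal (0.145) in knockouts. In wild type the median log2 change of all genes between males and females was -0.21, and 0 with median-ratio scaling.

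The order of the levels was nearly the same in the 4 groups. Ass1 was highest, at 1241 FPKM in knockout males, 2036 in wild-type males, 2178 in knockout females and 2480 in wild-type females, and Arg1 came next. Cps1 and Cyp2f2 followed, then Asl and Otc, then Gls2, Hal and Sds, with Cdh1 last. Cyp2f2 stood above Cps1 in knockout males alone, where their libraries overlapped. Ass1 and Arg1 overlapped in knockout males only, through the 841 FPKM of Ass1 in knockout male 1 and the 978 FPKM of Arg1 in knockout male 2. Asl and Otc overlapped in each group except the wild-type males, where Asl was higher.

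Around their group means the genes moved in sets, which were picked out after their values were seen. The deviations of Gls2, Sds, Ass1, Asl and Arg1 from the group mean went together over the 12 libraries, with Pearson's r of 0.78 to 0.89 for their pairs. Knockout male 1 and wild-type male 1 were the lowest of their groups in all 5 genes. Cdh1, Hal and Cps1 went together with r of 0.73 to 0.84, and between the sets r lay from -0.56 to 0.18. Cdh1, Hal and Cps1 have the 3 longest transcripts of the 10, at 4430, 5319 and 5555 bases, and were lowest of the wild-type males in wild-type male 2. With the length trend of each library removed, r was 0.62 to 0.88 within the first set, 0.57 to 0.61 within the second, and -0.50 to 0.59 between them. These are descriptions of 12 libraries that share groups, depth and RNA quality.

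**Figure D3:**
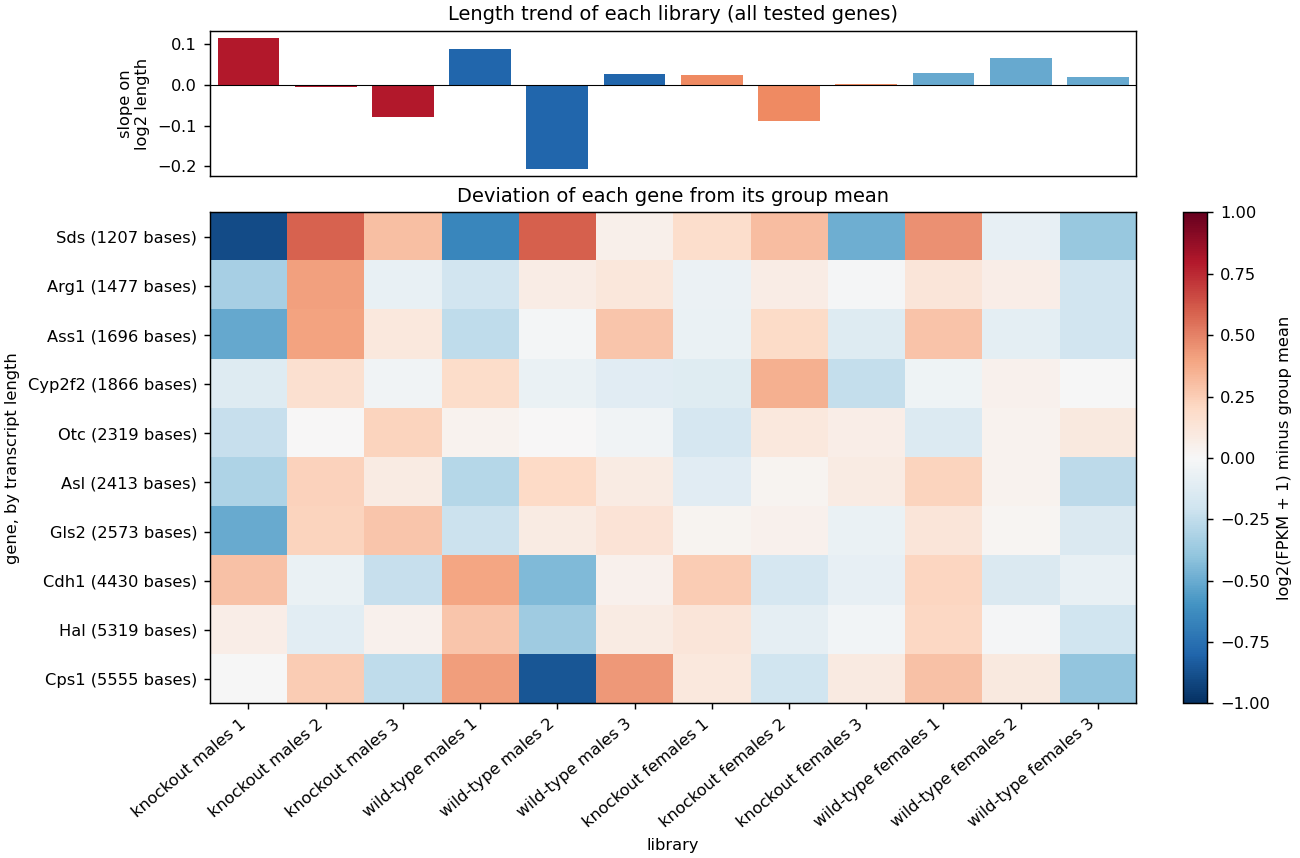
Top, slope of each library's log2 deviations on log2 transcript length over all tested genes. Bottom, deviation of each of the 10 genes from its group mean of log2(FPKM + 1), with genes ordered from 1207 to 5555 bases. Wild-type male 2, with a slope of -0.207, is the lowest of the wild-type males in the 3 longest genes, and knockout male 1, with a slope of 0.116, is low in the genes of up to 2573 bases.

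Over all 12 libraries the gene most like Cdh1 in log2 level was Ahcy, with r = 0.958, followed by Pcgf2 and Dtnb. Hal was most like Prkcz (r = 0.989), Cps1 most like Etl4 (0.963) and Asl most like Slc13a2 (0.919). Gls2 was most like 2610528J11Rik (0.986) and Pipox (0.978). Ass1 was most like Qdpr (0.943) and then Gls2 (0.933), the only case in which 1 of the 10 was among the 3 genes most like another. The best matches of Sds, Otc, Arg1 and Cyp2f2 were Gmnn (0.949), Apom (0.909), Selenbp1 (0.92) and Ces1f (0.863). These r pool the 4 groups and so carry the differences between them.

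Genes that serve the urea cycle around its 5 enzymes (carriers, cofactor and glutamate enzymes) were read from a list. In knockout males 1 of 9 tested genes rose, 0 fell and 8 did not pass, with a median of 0.01. The gene that rose was Glud1, the mitochondrial glutamate dehydrogenase, at 420, 420 and 403 FPKM in knockout males and 322, 274 and 297 FPKM in wild-type males (log2 change 0.48, SE 0.10, limma adjusted p = 0.0317), without overlap. With median-ratio scaling its change was 0.24 and did not pass (adjusted p = 0.347), and the median of the 9 was -0.22. In females 0 of 9 were called by limma, with 1 at an unadjusted p under 0.05: Slc25a15, the mitochondrial ornithine carrier, at 74.2 FPKM in knockout and 58.8 FPKM in wild type (limma adjusted p = 0.78).

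Enzymes that break down amino acids had a median change of -0.26 in knockout males (-0.49 with median-ratio scaling), with 17 of 23 below 0, and of -0.08 in females, with 16 of 23 below 0. None of the 23 was called by limma in either sex. At an unadjusted p under 0.05 there were 6 in males and 2 in females, beside 2752 and 706 of all 11514 tested genes. Averaged over the sexes 1 fell: Ftcd, which acts at the last step of the histidine breakdown that starts with Hal (log2 change -0.59, SE 0.13, limma adjusted p = 0.048), and with median-ratio scaling Ftcd fell in males alone as well (-0.90, adjusted p = 0.0342). Ftcd was listed at 74.2, 88.1 and 53.7 FPKM in knockout males and at 117, 107 and 114 FPKM in wild-type males, and at 72.5, 107 and 86.3 FPKM in knockout females and 139, 125 and 114 FPKM in wild-type females. The groups did not overlap in either sex. Prodh, the proline dehydrogenase, averaged 57.3 FPKM in knockout males and 88.9 FPKM in wild-type males without passing (limma adjusted p = 0.0793).

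Of 9 amino acid transporters, 1 fell and 8 missed the threshold in knockout males (median -0.20, and -0.42 with median-ratio scaling). Slc43a1, a carrier of large neutral amino acids, had 0.54, 0.75 and 0.72 FPKM in knockout males and 2.05, 2.13 and 2.72 FPKM in wild-type males (log2 change -0.98, SE 0.16, limma adjusted p = 0.0115), and with median-ratio scaling the change was -1.13 (adjusted p = 0.00699). In females 0 of 9 were called by limma (median -0.07), with 3 at an unadjusted p under 0.05. Averaged over the sexes Slc43a1 fell (-0.64, limma adjusted p = 0.0253) and Slc1a4, a carrier of small neutral amino acids, rose (0.60, SE 0.12, limma adjusted p = 0.0468), a rise that did not pass with median-ratio scaling (0.53, adjusted p = 0.0645). Slc1a4 averaged 1.91 FPKM in knockout males and 0.863 FPKM in wild-type males, and 1.95 FPKM in knockout females and 0.967 FPKM in wild-type females, without overlap in either sex.

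Other genes with a periportal place in the lobule were read as well. Of 14 tested, 2 rose in knockout males, 0 fell and 12 did not pass (median 0.15). Mfsd2a, a carrier of lysophospholipids, averaged 26.4 FPKM in knockout males and 7.49 FPKM in wild-type males (log2 change 1.71, SE 0.35, limma adjusted p = 0.0334), and the protease gene Ctsc averaged 58.8 and 24.3 FPKM (1.13, SE 0.25, limma adjusted p = 0.0447). With median-ratio scaling neither passed (Mfsd2a 1.49, adjusted p = 0.0933, and Ctsc 0.91, adjusted p = 0.0866), and the median of the 14 turned to -0.08. In females 0 of 14 were called by limma (median 0.08), with 1 at an unadjusted p under 0.05. Of 17 pericentral genes 2 rose, 1 fell and 14 did not pass in knockout males (median 0.30), and 0 were called by limma in females (median 0.28), with 5 at an unadjusted p under 0.05. Aldh1a1, a retinal dehydrogenase, averaged 1552 FPKM in knockout males and 773 FPKM in wild-type males (log2 change 1.01, SE 0.16, limma adjusted p = 0.0131), and Rhbg, an ammonium channel, 7.36 and 2.26 FPKM (1.27, SE 0.27, limma adjusted p = 0.0336). The gene that fell was Cyp27a1, the sterol 27-hydroxylase, at 192 FPKM in knockout males and 280 FPKM in wild-type males (-0.55, SE 0.11, limma adjusted p = 0.0294). Averaged over the sexes 3 pericentral genes rose, among them Glul, the glutamine synthetase that catches ammonia downstream of the urea cycle (log2 change 0.52, SE 0.11, limma adjusted p = 0.0444). With median-ratio scaling 0 of the 17 rose in males and 2 fell, with a median of 0.06 and with 0.78 for Aldh1a1 (adjusted p = 0.0581), 1.09 for Rhbg (0.0682) and -0.78 for Cyp27a1 (0.0317), and the averaged change of Glul was 0.41 (0.0726).

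The mean log2 level of the 10 genes minus that of the pericentral genes was 1.43, 1.75 and 1.82 in knockout males and 2.54, 2.65 and 2.49 in wild-type males. It was 1.98, 2.04 and 1.96 in knockout females and 2.68, 2.60 and 2.40 in wild-type females. The knockout libraries were below the wild-type libraries in each sex. This holds for the 10 chosen genes and not for periportal genes at large. The 14 other periportal genes had median changes of 0.15 in males and 0.08 in females, beside 0.19 and 0 over all genes. In each sex 10 lay above 0 and 4 below 0, while 21.2% of all tested genes lay below 0 in males and 49.3% in females. With median-ratio scaling the male median of the 14 was -0.08. No test was made of this difference, whose genes were chosen with earlier results known.

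**Figure D4:**
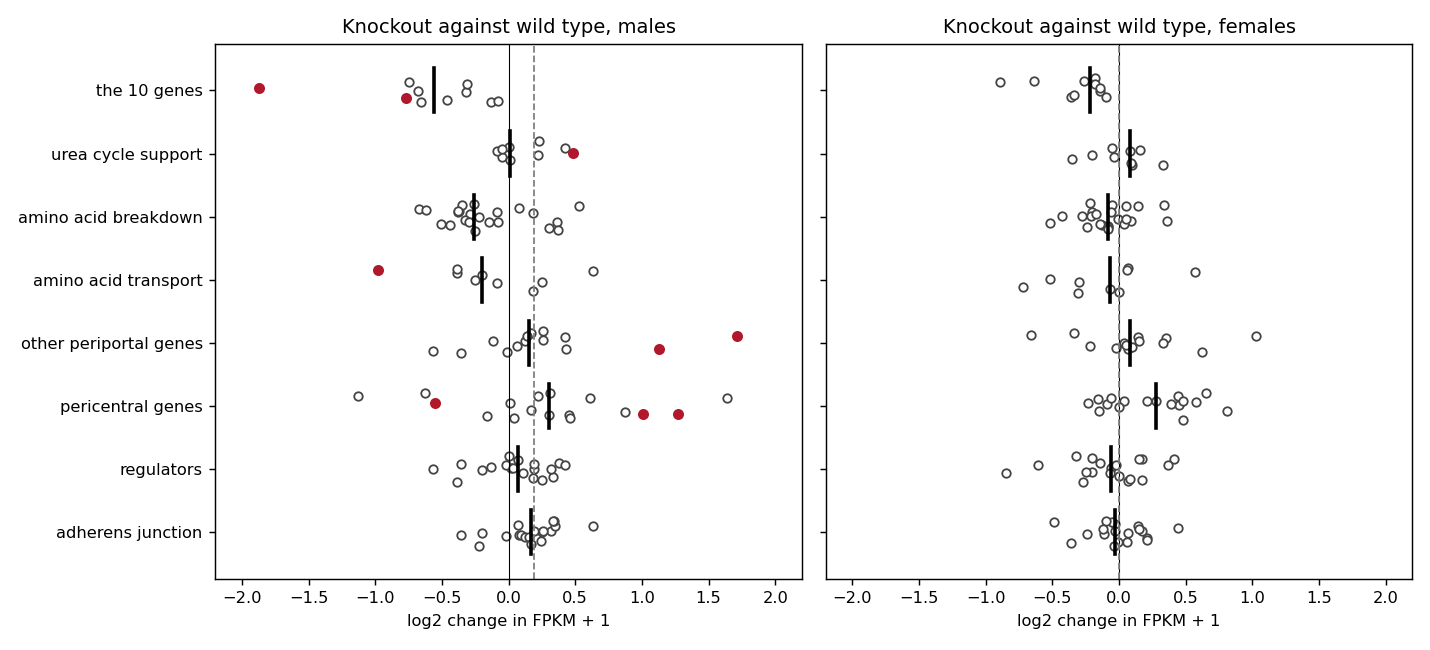
Log2 change in FPKM + 1, knockout against wild type, for the 10 genes and 7 related lists in males (left) and females (right). Each point is a gene, red where the adjusted p is under 0.05, the thick black bar is the median of the list and the dashed line the median of all tested genes. The 10 genes have medians of -0.56 and -0.22, and the pericentral genes 0.30 and 0.28.

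Of 19 transcription factors and other regulators of periportal genes, 0 were called by limma in males, females or the average, and at an unadjusted p under 0.05 there were 2, 1 and 3. Hnf4a, a master regulator of hepatocyte genes, averaged 142 FPKM in knockout males and 107 FPKM in wild-type males (log2 change 0.42, SE 0.15, limma adjusted p = 0.133). Ppara, the fatty acid receptor, averaged 28.0 FPKM in knockout females and 51.2 FPKM in wild-type females (log2 change -0.85, SE 0.36, limma adjusted p = 0.796), without overlap.

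Markers of other liver cells moved with the male comparison. The labelled tissue was met by hepatocyte markers, whose 10 genes summed to 60134 to 66683 FPKM in knockout males and 69266 to 81165 FPKM in wild-type males, without overlap, while 0 of the 10 were called by limma, with 5 at an unadjusted p under 0.05. Most of that sum was Alb, the albumin gene, at 31720 to 35762 FPKM in knockout males and 39817 to 44456 FPKM in wild-type males, and of the 10 genes 6 lay below 0 and 4 above (median -0.13). In females the sums were 77625 to 79811 FPKM in knockout and 69934 to 79076 FPKM in wild type. Hp, the gene of the acute phase protein haptoglobin, rose averaged over the sexes (log2 change 0.66, SE 0.14, limma adjusted p = 0.0468; 0.54 and 0.175 with median-ratio scaling), with 3576 FPKM in knockout males, 2239 in wild-type males, 1735 in knockout females and 1158 in wild-type females and no overlap in either sex. The 11 macrophage markers summed to 335 to 783 FPKM in knockout males and 150 to 291 FPKM in wild-type males, and 6 of them rose. The 10 sinusoidal endothelium markers summed to 154 to 165 and 98.3 to 114 FPKM in the same groups, and 6 rose. The 10 stellate cell markers summed to 209 to 306 and 151 to 164 FPKM, and 1 rose, while the 8 lymphocyte markers overlapped at 6.22 to 29.7 and 6.95 to 14.6 FPKM. With median-ratio scaling 2 macrophage, 4 endothelium and 0 stellate cell markers rose in knockout males. In females none of the macrophage, endothelium, stellate cell or lymphocyte markers was called by limma, also none at an unadjusted p under 0.05. Of the 10 hepatocyte markers 0 were called there, with 1 (Hp) at an unadjusted p under 0.05. Over all tested genes 2.13% were called higher in knockout males. In wild type, 8 of the 11 macrophage and 9 of the 10 endothelium markers were called lower in males than in females. The background there was 11.1%. In knockouts 0 markers of either list were called between the sexes. For macrophage, endothelium and stellate cell markers, the sums of wild-type males lay below those of every other group. The part of these markers in the lower level of the 10 genes was not tested.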

How the data were processed

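Liver RNA was sequenced in 12 libraries, 3 per group. The deposited values are FPKM per gene; per the submitters' processing notes the authors used TopHat2 and mm10, with the quantifier, annotation and filters not given in the sources used here. The members and lists were chosen with earlier results of these data known. Groups came from the labels. The test was limma 3.58.1 (R 4.3.3), applied to log2(FPKM + 1) of genes that reached 1 FPKM in 3 or more libraries (11514 of 18560, the 10 genes among them), with 4 group means over all 12 libraries, a trended variance and Benjamini-Hochberg adjustment over all tested genes. A fold on this scale understates the change of low genes such as Cdh1. The fit was tested on simulated data. Gene positions (GRCm38) and promoters came from RefSeq, and transcript lengths for 99.3% of genes from GENCODE mouse release 21. Besides the 10 genes, those named are, per list, the ones called or with the smallest p, the markers needed for a check, and the 3 of highest Pearson's r to each gene. Ctnnb1 and Cdh2 were chosen after their values were seen. Replicate numbers did not pair the libraries. Alternatives were another pseudocount, no filter, median-ratio scaling, a replicate block, a fit of the 2 groups alone and each library left out, and, added after seeing the data, removal of the length trend and of 3 libraries.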

Additional observations from a re-analysis of the deposited data

How the results depend on the processing

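Of 1120 values of the 10 genes under the alternatives, 1032 kept their direction and side of the threshold, 26 lost a call, 21 gained one and 41 changed sign; causes were not tested. In males 2 of the 10 genes were called, against 1 with no filter, 1 with the replicate block, 0 in the fit of the 2 groups alone, 4 with the length trend removed, 1 without the 3 trace libraries, and 1 to 3 with 1 library left out. All genes called in males were 294 (245 higher, 49 lower), against 174 with no filter, 152 with median-ratio scaling (71 higher, 81 lower), 132 with the replicate block, 3 in the fit of the 2 groups alone, 842 with the length trend removed, 125 without the 3 libraries, and 58 (without wild-type male 3) to 570 (without knockout male 3) with 1 library left out. In females they were 2, against 1 with a pseudocount of 0.1, 4 with no filter, 1 with median-ratio scaling, 6 in the fit of the 2 groups alone, 1 with the length trend removed, 0 without the 3 libraries, and 0 to 12 with 1 left out. Averaged over the sexes, 1 of the 10 was called, against 3 with the length trend removed, 0 without the 3 libraries and 1 to 3 with 1 left out. Of all genes 168 were called there (126 higher, 42 lower), against 57 with no filter, 73 with median-ratio scaling (27 higher, 46 lower), 60 with the replicate block, 548 with the length trend removed, 8 without the 3 libraries and 30 to 238 with 1 left out. The interaction called 3 genes, against 5 with a pseudocount of 0.1, 5 with the replicate block, 1 with the length trend removed and 1 to 22 with 1 left out.

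Males against females in wild type called 2 of the 10, against 0 without the 3 libraries and 1 to 3 with 1 left out, and 1539 genes (266 higher, 1273 lower), against 1060 with median-ratio scaling (552 higher, 508 lower), 2319 with the length trend removed, 525 without the 3 libraries and 675 to 2081 with 1 left out. In knockouts they called 2 of the 10, against 4 with the length trend removed, 0 without the 3 libraries and 1 to 3 with 1 left out, and 423 genes, against 216 in the fit of the 2 groups alone, 656 with the length trend removed, 123 without the 3 libraries and 201 to 637 with 1 left out. Signs turned with median-ratio scaling for the interaction of Sds (-0.18), Arg1 (-0.20) and Cyp2f2 (-0.21) and for Arg1 in wild-type males against females (0.08). They turned without the 3 libraries for the interaction of Sds (-0.23), Cps1 (0.02) and Arg1 (-0.01) and for Cdh1 in knockout males against females (0.16). With 1 library left out they ranged in males from -0.41 to 0.37 for Sds and -0.34 to 0.03 for Arg1, in females from -0.33 to 0.10 for Sds, and averaged from -0.27 to 0.11 for Sds. For the interaction they ranged from -0.30 to 0.02 for Hal, -0.26 to 0.51 for Sds, -0.44 to 0.21 for Cps1, -0.16 to 0.21 for Arg1 and -0.08 to 0.21 for Cyp2f2. For males against females they ranged from -0.59 to 0.05 for Cps1 in wild type, and in knockouts from -0.23 to 0.04 for Cdh1 and -0.35 to 0.02 for Arg1.

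Same-numbered libraries correlated above 0.1 in 6 of 18 pairs, and in 6 a library correlated best with its own number, so the numbers were not taken as pairs. With the replicate block, Cdh1 in males kept its call (adjusted p = 0.00039) and Asl did not (0.0665). The 3 libraries a group limit the precision. The SD of Cdh1 was 32.7% of its mean in knockout males and 31.8% in wild-type males, where its estimated fragments were more numerous.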
